A study of Mus musculus with 4 samples.

Results

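The gene set described here holds 10 genes of the antioxidant defence controlled by the transcription factor Nrf2 and of the removal of superoxide, measured in mouse retina after a pressure injury. The members were taken by their gene symbols, all 10 were found among the 14572 entries of the deposited gene table, and all 10 passed the filter on low values that left 12687 genes for testing. They are Nfe2l2, the gene of Nrf2 itself, its target genes Nqo1, Gclc, Gclm, Txnrd1 and Srxn1, and the superoxide and peroxide enzymes Sod1, Sod2, Cat and Prdx6. None of the members passed the test between genotypes over all genes, and 7 of them had their highest level in the same library, TP-1036, which is 1 of the 2 marked as case and taken as transgenic. The member with the largest fitted difference was Prdx6, which stood 1.43-fold higher in the case libraries.

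The study compared retinas of wild-type mice with retinas of mice labelled PLSCR1-TG, transgenic for the phospholipid scramblase PLSCR1, all of strain C57BL/6. Every eye had acute ocular hypertension, a raised pressure that models glaucoma damage, for 1 h, and the retina was taken 5 days later, so uninjured tissue was not analysed here. There were 2 libraries per group, P1041 and P1033 from wild type and TP-1036 and TP-1040 marked as case, with 28866589 to 41215649 estimated reads each. No label names TP-1036 or TP-1040 as transgenic. They were placed in that group because the series has no other, and are called case libraries below. Plscr1 itself, at 7.98 and 8.36 CPM in wild type and 9.80 and 8.06 CPM in these libraries, did not pass the test (log2 difference 0.13 ± 0.17, SE, edgeR adjusted p = 0.742), so the genotype could not be checked from it. CPM is counts per 1e6 reads of a library, scaled with edgeR's TMM factors. The sources used here do not give the promoter or the species of the transgene, the number of founder lines or whether animals were pooled. The age in the labels is embryonic and cannot be that of an injured eye, so it was not used.

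Nrf2 is held in the cytoplasm and marked for destruction by Keap1. Oxidants and electrophiles modify Keap1, Nrf2 then enters the nucleus, pairs with small Maf proteins and binds antioxidant response elements near its target genes. Superoxide is turned into hydrogen peroxide by the dismutases, Sod1 in the cytosol and Sod2 in mitochondria, and the peroxide is removed by catalase, peroxiredoxins and glutathione peroxidases. The retina uses much oxygen and holds polyunsaturated lipids, and its Müller glia supply glutathione precursors to neurons.

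A window was taken from 250 bases before to 50 bases after each start site in RefSeq (GRCm38.p6). It was searched on both strands for TGACNNNGC, the core of the antioxidant response element. Windows were found for 8 of the 10 members (Gclc and Prdx6 had none in the table used), and 5 of the 8 held a match, as did 14.0% of the 27025 genes with a window and 12.4% of all 32851 windows. A match is a string of letters and not a measured binding site. The match with 10 bases on each side, read in its own direction with the core in capitals, was as follows.
Nfe2l2, chr2:75704885-75704913, minus strand: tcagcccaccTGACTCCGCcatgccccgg
Srxn1, chr2:152105542-152105570, minus strand: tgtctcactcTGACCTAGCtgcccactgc
Gclm, chr3:122245413-122245441, minus strand: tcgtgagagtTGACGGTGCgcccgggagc
Txnrd1, chr10:82859104-82859132, minus strand: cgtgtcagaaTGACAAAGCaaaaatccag
Sod1, chr16:90220696-90220724, minus strand: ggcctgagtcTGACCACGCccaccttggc

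The cores differed from each other in the free bases, and the one of Srxn1 lay after the start site. The window of Txnrd1 with the match was 1 of its 3. Cat, Nqo1 and Sod2 held no match in these windows, which says nothing of elements farther away. The 250 bases before the start site are printed for the regulator Nfe2l2 and for Gclm, which hold the core (in capitals, on the strand of the gene), and for Cat, which does not. They are shown together because Nfe2l2 and Cat had a similar pattern over the libraries and Gclm a flatter one. Nfe2l2 and Cat lie on the minus strand and Gclm on the plus strand.
Nfe2l2, chr2:75704664-75704913: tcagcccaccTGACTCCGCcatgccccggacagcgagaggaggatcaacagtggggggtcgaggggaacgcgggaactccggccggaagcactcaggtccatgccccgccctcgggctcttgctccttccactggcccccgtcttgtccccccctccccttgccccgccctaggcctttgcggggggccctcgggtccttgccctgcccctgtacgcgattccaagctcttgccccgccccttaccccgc
Cat, chr2:103485154-103485403: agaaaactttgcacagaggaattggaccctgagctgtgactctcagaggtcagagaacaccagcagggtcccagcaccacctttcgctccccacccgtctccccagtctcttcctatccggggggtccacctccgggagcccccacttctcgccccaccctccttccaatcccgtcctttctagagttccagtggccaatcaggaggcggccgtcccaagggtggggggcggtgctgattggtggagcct
Gclm, chr3:122245307-122245556: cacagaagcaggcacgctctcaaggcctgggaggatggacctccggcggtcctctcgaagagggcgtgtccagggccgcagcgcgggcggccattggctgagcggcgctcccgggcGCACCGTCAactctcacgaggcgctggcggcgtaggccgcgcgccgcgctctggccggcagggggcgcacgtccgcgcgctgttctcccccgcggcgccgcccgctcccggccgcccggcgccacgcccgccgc

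The libraries were retinal and differed in other ways than genotype. The rod transducin gene Gnat1 stood between 12471 and 16378 CPM in the 4 libraries, and 0 of 9 markers of lymphocytes and neutrophils were in the table. Summed over their lists, Müller glia markers held 5680 (P1041), 5964 (P1033), 8854 (TP-1036) and 7259 CPM (TP-1040), with Glul and Apoe the most abundant, and microglia and macrophage markers 225, 253, 557 and 385 CPM, with Csf1r among the most abundant. Retinal ganglion cell markers held 860, 588, 556 and 485 CPM, and all 10 had a fitted value below wild type (median -0.57 on the log2 scale, 6 with an unadjusted p under 0.05 and 0 past the adjusted threshold in edgeR), though the wild-type libraries differed by a median of -0.51. Their part in the members' values was not tested. Of 8 listed lens markers only 3, the crystallins Cryaa, Crybb2 and Crybb3, were in the table. They held 3.31, 0.82, 233 and 5.71 CPM, so TP-1036 stood apart in these crystallins. Mip, Lim2, Bfsp1, Crygs and Cryba1 had no entry, so lens tissue could not be checked from them. In whole tissue more cells of a type cannot be told apart from more RNA per cell.

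The members covered a wide range of levels. Per kilobase of the principal transcript, Sod1 was the most abundant, with 97.0 CPM per kilobase on average over the 4 libraries (85.1 to 118), and Prdx6 came next with 78.4 (64.0 to 111), so their ranges overlapped. Srxn1 (22.1) and Sod2 (21.8) followed and also overlapped. Nfe2l2 (14.3), Txnrd1 (13.0) and Cat (12.4) overlapped each with its neighbour. Gclc (11.1) and Gclm (7.67) each lay below the gene above without overlap. Nqo1, a quinone reductase, was lowest at 1.31 CPM per kilobase (1.01 to 1.85), 5.87-fold below Gclm. The order depended on the transcript length used, since Sod1 would stand at 15.7 CPM per kilobase with its longest annotated transcript of 3970 bases in place of the principal one of 641 bases.

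**Figure D1:**
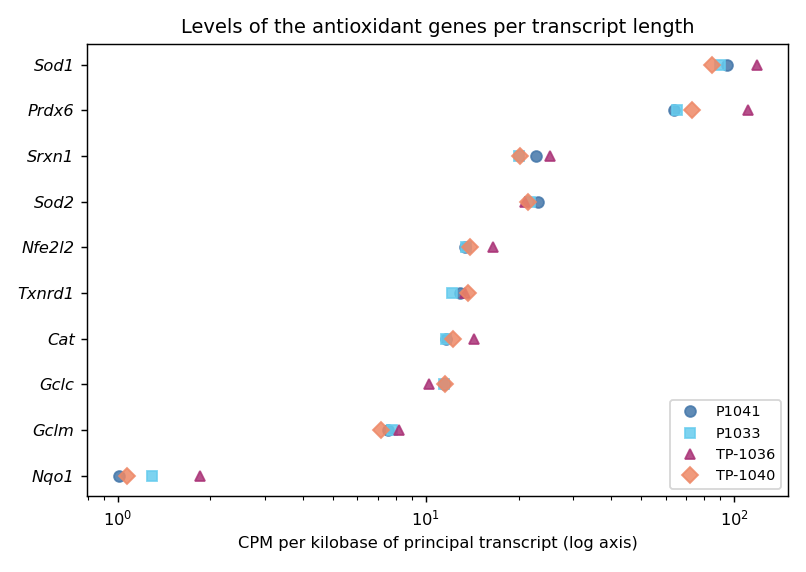
Level of each antioxidant gene in the 4 libraries, as CPM per kilobase of principal transcript on a log axis, ordered by the mean. Points are single libraries. Sod1 and Prdx6 lie highest and Nqo1 lowest, and for 7 of 10 genes the rightmost point is TP-1036.

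The regulator came first. Nfe2l2 had 33.2 and 33.3 CPM in the wild-type libraries P1041 and P1033, and 40.8 and 34.3 CPM in TP-1036 and TP-1040. Both case values lay above both wild-type values, but TP-1040 exceeded the wild-type mean by only 3.31% and TP-1036 by 22.9%. The fitted log2 difference was 0.18 ± 0.13 (SE, 95% interval -0.14 to 0.49), and edgeR's quasi-likelihood test gave 0.579 as the p adjusted over all genes by Benjamini-Hochberg. Its inhibitor Keap1 had 57.5 and 54.5 against 64.5 and 57.1 CPM, in which the groups overlapped (0.12 ± 0.12, edgeR adjusted p = 0.664).

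The enzymes of glutathione synthesis differed least. Gclc, the catalytic subunit of glutamate-cysteine ligase, had 39.2 and 39.1 CPM in wild type and 34.9 and 39.4 CPM in TP-1036 and TP-1040. It was the member that stood lowest in TP-1036 against wild type, and TP-1040 lay above both wild-type libraries. Its log2 difference was -0.07 ± 0.12 (SE, 95% interval -0.36 to 0.21, edgeR adjusted p = 0.785). Gclm, the modifier subunit that raises the activity of Gclc, had 42.2 and 43.5 against 45.7 and 40.1 CPM, with the highest and the lowest value both in the case group. Its log2 difference was 0.002 ± 0.12 (95% interval -0.29 to 0.29, edgeR adjusted p = 0.994), and the sign turned under other scalings. The ratio of Gclc to Gclm per kilobase was 1.52 and 1.47 in wild type, 1.25 for TP-1036 and 1.60 for TP-1040.

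The thioredoxin branch held the member on which the case libraries came closest to each other while lying above wild type. Txnrd1, the cytosolic thioredoxin reductase, had 43.0 and 40.4 CPM in wild type and 44.4 and 45.5 CPM in TP-1036 and TP-1040. The groups did not overlap, and this was the only member of those higher in both libraries with its higher value in TP-1040. The difference was small, at 0.11 ± 0.11 on the log2 scale (95% interval -0.16 to 0.38, edgeR adjusted p = 0.671), and the wild-type libraries lay 0.09 apart. Srxn1, sulfiredoxin, which restores over-oxidized peroxiredoxins, had 63.9 and 56.3 against 71.2 and 56.6 CPM. TP-1040 lay just above the lower wild-type library, so the groups overlapped, and the log2 difference was 0.09 ± 0.15 (95% interval -0.27 to 0.45, edgeR adjusted p = 0.798).

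Nqo1, a widely used readout of Nrf2 activity, had few reads, 45 and 66 in wild type and 109 and 68 in TP-1036 and TP-1040. These were 1.57 and 2.0 against 2.88 and 1.67 CPM. From counting error alone the exact (Clopper-Pearson) 95% intervals of the unscaled CPM were 1.14 to 2.09 and 1.57 to 2.59 in wild type, 2.32 to 3.41 in TP-1036 and 1.28 to 2.09 in TP-1040. TP-1036 stood above the other 3 libraries and TP-1040 between the wild-type values. The log2 difference of 0.34 ± 0.36 had the widest interval of all members (-0.52 to 1.21, edgeR adjusted p = 0.674), so a doubling in the case group was inside it.

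**Figure D2:**
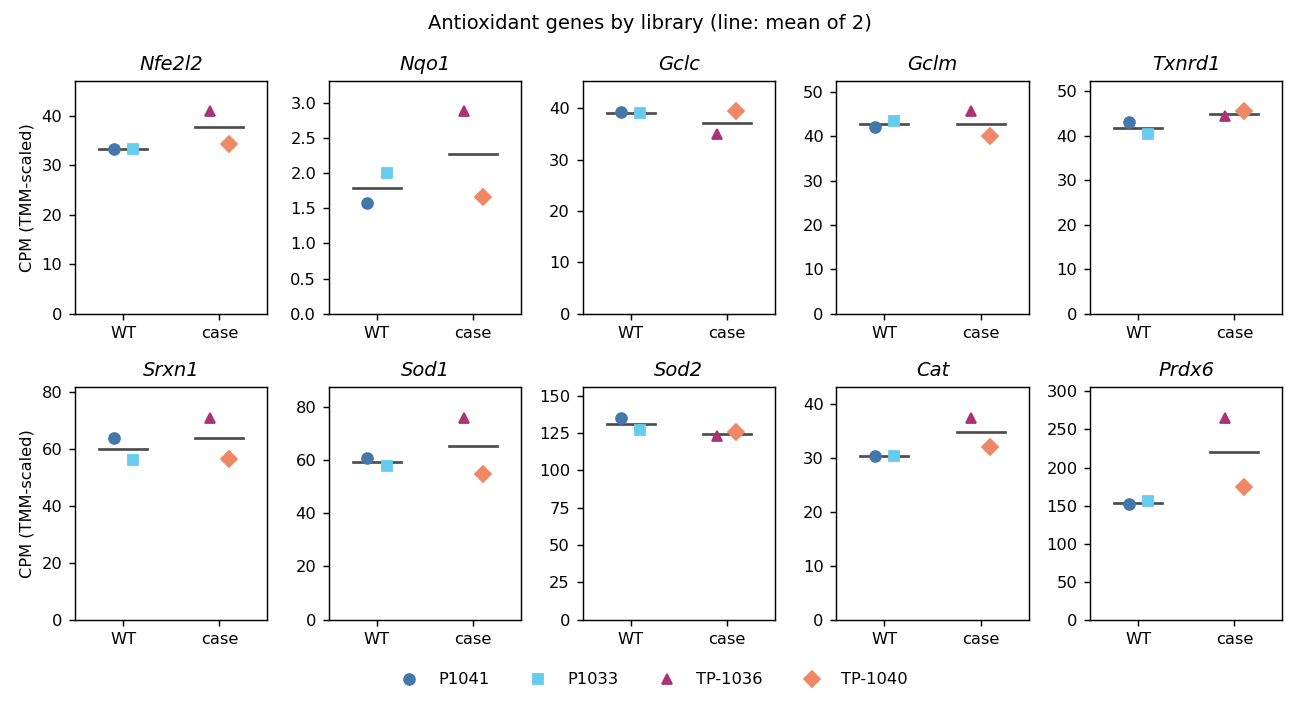
TMM-scaled CPM of each antioxidant gene in the 2 wild-type and 2 case libraries. Each point is a library, the line is the group mean, and each axis starts at 0. TP-1036 is the highest library for Prdx6 at 266 CPM and for 6 other genes, but the lowest for Gclc and Sod2.

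The dismutases went different ways. Sod1, the copper-zinc enzyme of the cytosol, had 60.7 and 57.6 CPM in wild type, 75.9 CPM in TP-1036 and 54.5 CPM in TP-1040, the highest and the lowest value of the 4 in the same group. Its log2 difference was 0.14 ± 0.17 (SE, 95% interval -0.27 to 0.55, edgeR adjusted p = 0.717), 0.37 without TP-1040 and -0.11 without TP-1036. Sod2, the manganese enzyme of mitochondria, was the steadiest between the case libraries together with Txnrd1, with 135 and 127 CPM in wild type and 123 and 126 CPM in TP-1036 and TP-1040. It was the only member below both wild-type libraries in both case ones, by 6.53% and 4.25% of the wild-type mean, and its log2 difference was -0.08 ± 0.11 (95% interval -0.34 to 0.18, edgeR adjusted p = 0.747). The ratio of Sod2 to Sod1 per kilobase was 0.244 and 0.242 in wild type, 0.177 for TP-1036 and 0.252 for TP-1040.

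The peroxide enzymes had the largest fitted differences beside Nqo1. Cat, catalase of peroxisomes, had 30.3 CPM in both wild-type libraries, 37.5 CPM in TP-1036 and 32.0 CPM in TP-1040, without overlap. Its log2 difference was 0.20 ± 0.13 (95% interval -0.11 to 0.51, edgeR adjusted p = 0.554). Prdx6, a peroxiredoxin that also reduces phospholipid hydroperoxides and is encoded on the minus strand at chr1:161240112-161251219 (GRCm38), had 153 and 155 CPM in wild type, 266 CPM in TP-1036 and 174 CPM in TP-1040. TP-1036 exceeded the wild-type mean by 72.5% and TP-1040 by 13.2%, while P1033 lay 0.02 above P1041 on log2(CPM + 1). The fitted difference was 0.51 ± 0.20 (95% interval 0.03 to 1.00), with an unadjusted p of 0.0409 and an adjusted p of 0.538 in edgeR's quasi-likelihood test. It was 0.79 without TP-1040 and 0.18 without TP-1036.

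**Figure D3:**
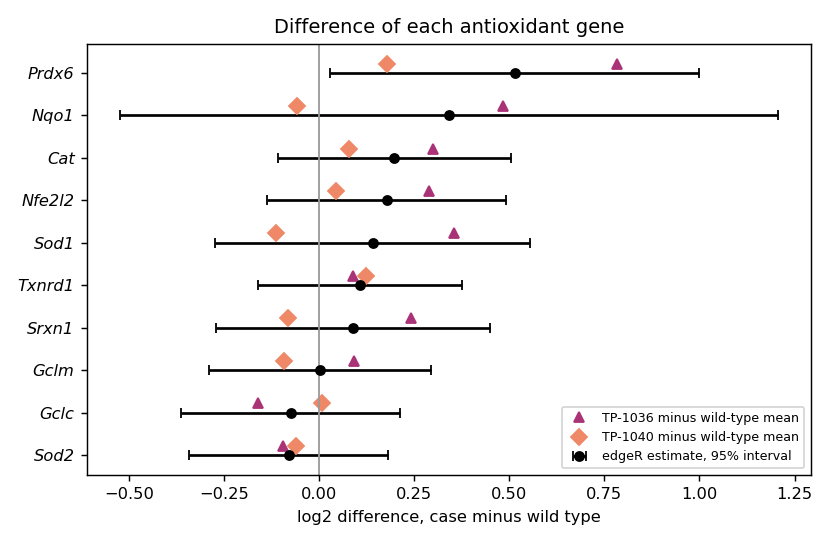
Log2 difference of each antioxidant gene, case minus wild type, as the edgeR estimate with its 95% interval (black) and as the difference of each case library from the wild-type mean on log2(CPM + 1) (coloured). The interval of Prdx6, from 0.03 to 1.00, lies above 0, and the other 9 include it.

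Read against all tested genes, the members as a group gave few calls. With edgeR, 0 of 10 reached a Benjamini-Hochberg adjusted p of 0.05, as did 0 of 12687 genes (0%), and DESeq2 called 0 of 10 members and 0.544% of all genes. At an unadjusted p of 0.05 in edgeR 1 member, Prdx6, was higher, where 4.72% of all genes were, and 0 were lower, where 4.15% were. The groups did not overlap in 4 members with higher values (Nfe2l2, Txnrd1, Cat and Prdx6), where 23.8% of all genes lay so, and in 1 with lower values (Sod2), where 24.1% did. Of the members 8 had a log2 difference above 0 and 2 below, against 50.4% above among all genes, with a median of 0.12 against 0.0023, and 7 were above with RLE scaling, where Gclm turned. The labels do not say that the libraries came from separate animals, and a p-value therefore reflects the spread among these 4 libraries, which may be technical.

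The higher values came mainly from TP-1036. On log2(CPM + 1) the members' median against the wild-type mean was 0.27 for library TP-1036 and -0.02 for library TP-1040, beside 0.0050 and -0.0031 over all tested genes. In TP-1036 8 members were above the wild-type mean and in TP-1040 5, namely Prdx6, Txnrd1, Cat, Nfe2l2 and, by 0.01, Gclc. Without TP-1036 the fitted median became -0.02, with 5 members higher. Without TP-1040 it became 0.28, and Prdx6 (edgeR adjusted p = 0.000345) and Sod1 (edgeR adjusted p = 0.0182) passed the test as higher, in a fit that called 13.6% of all genes higher and took the lone library to vary as the wild-type ones do.

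**Figure D4:**
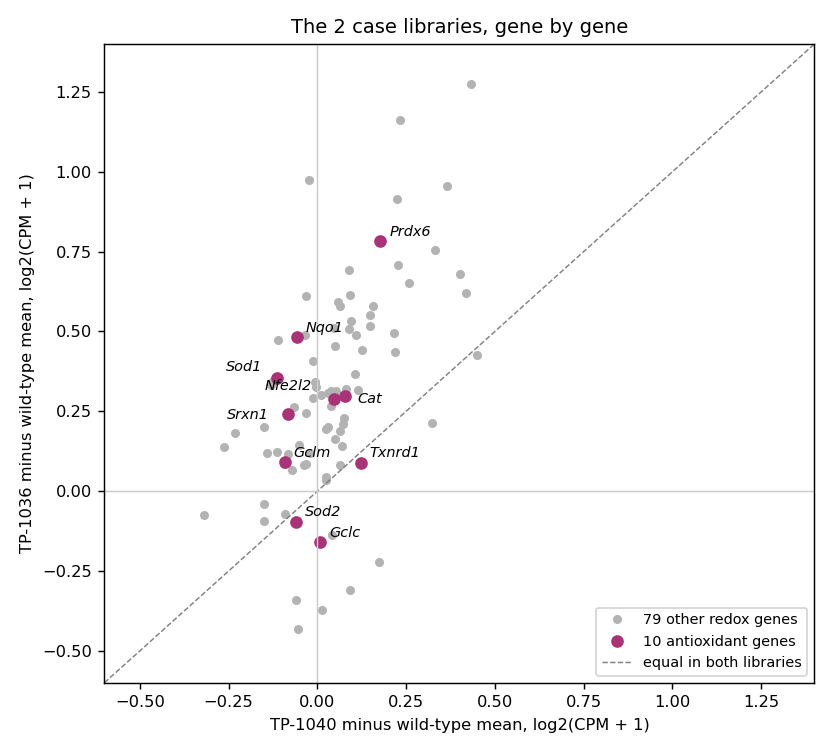
Difference of TP-1040 (horizontal) and TP-1036 (vertical) from the wild-type mean on log2(CPM + 1), for the 10 antioxidant genes and 79 other redox genes, with a dashed line where both libraries are equal. Prdx6 lies at 0.18 and 0.78, and 7 of the 10 antioxidant genes lie above the line, where 6420 of all 12687 tested genes do. In the other lists 10 of 14 regulators, 21 of 23 targets and 14 of 14 superoxide and peroxide removal genes do. So do 18 of 18 glutathione, 12 of 14 thioredoxin and 3 of 3 NADPH oxidase genes.

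Transcript length moved with the same library. Over 12144 tested genes with a principal transcript, the TP-1036 minus TP-1040 difference and the length had a Spearman correlation of -0.541 across genes, which share the 2 libraries and are not independent. The median difference on log2(CPM + 1) was 0.29 for transcripts under 1000 bases, 0.19 from 1000 to 2000, 0.03 from 2000 to 4000 and -0.18 over 4000 bases. Sod1, with the shortest transcript of the members, differed by 0.47 and Nqo1 by 0.54. Prdx6, at 2387 bases, differed by 0.60, while Gclc and Txnrd1 of the same length class differed by -0.17 and -0.03. In all, 8 of 10 members lay above the median of their own length class, the exceptions being Gclc and Txnrd1. The part of transcript length in the members' differences was not tested.

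**Figure D5:**
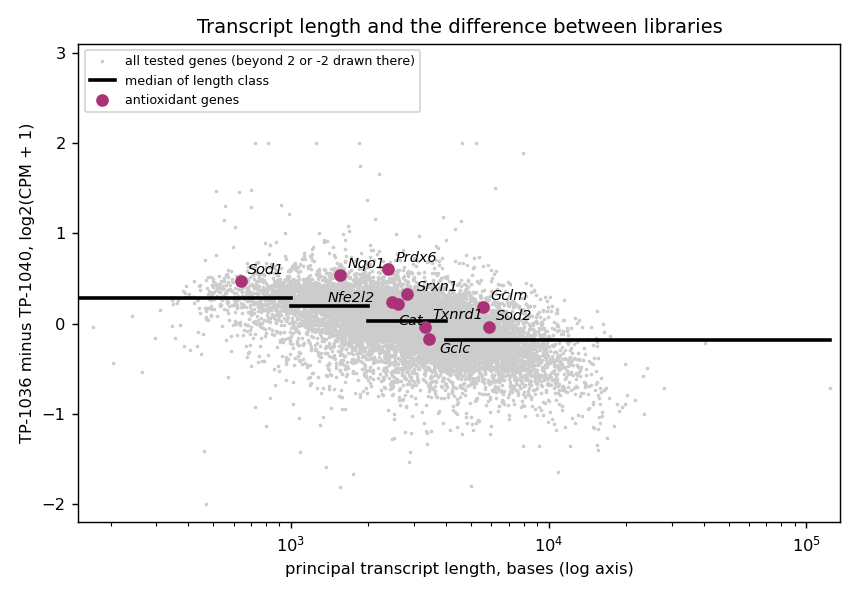
Principal transcript length (log axis) and the TP-1036 minus TP-1040 difference on log2(CPM + 1) for all tested genes (grey) and the antioxidant genes (coloured), with the median of each length class as a black line. The class medians go from 0.29 to -0.18 with length, and Prdx6 lies 0.57 above the line of its class.

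Glial markers moved with Prdx6 as well. All 13 tested Müller glia markers lay above the wild-type mean in both case libraries, with medians of 0.50 for TP-1036 and 0.21 for TP-1040 on log2(CPM + 1). All 16 tested microglia and macrophage markers did so too, with medians of 1.09 and 0.64. Such counts were not confined to glia. All 9 tested rod markers also lay above the wild-type mean in both case libraries, with medians of 0.34 and 0.09. Per 1000 CPM of summed Müller glia markers, Prdx6 had 26.9 and 26.1 CPM in wild type, 30.0 for TP-1036 and 24.0 for TP-1040, so on this scale the groups overlapped, at 26.5 ± 0.589 against 27.0 ± 4.23 (SD, n = 2). Glul and Apoe led this sum, with fitted log2 differences of 0.23 ± 0.14 and 1.04 ± 0.18 (SE), beside a list median of 0.38. Apoe had the largest difference of the list, with 1017 and 1250 CPM in wild type against 2620 and 2046 CPM in TP-1036 and TP-1040. The overlap therefore depends on which markers are summed. With Apoe left out of the sum, both case libraries would lie above both wild-type ones, TP-1040 only narrowly. Of the 4 tested astrocyte markers all had a higher fitted value, but the groups overlapped in 3. Only Gfap lay apart, at 182 and 134 CPM against 116 and 96.1 CPM. The part of these cells in the values of Prdx6 was not tested.

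The rest of the pathway was described from lists of its regulators, targets and enzymes, and 0 genes of any list passed the adjusted threshold. The lists share genes, namely Prdx1, Park7, Gsr, Slc7a11, Gstm1, Gstp1 and Txn1, so their counts are not separate results. Of 14 tested regulators and partners of Nrf2, 7 were higher and 7 lower, with a median of 0.01. Dpp3, which competes for Keap1, stood at 0.21 ± 0.13 and the autophagy adaptor Sqstm1, which also binds Keap1, at 0.18 ± 0.15. The kinase Gsk3b and the ubiquitin ligase subunit Btrc, which mark Nrf2 for degradation by another route, stood at -0.17 ± 0.15 and -0.23 ± 0.15 (log2, SE). Park7, a redox-sensitive chaperone, stood at 0.17 ± 0.14. These differences came mainly from TP-1036. On log2(CPM + 1) against the wild-type mean, TP-1036 and TP-1040 stood at 0.34 and -0.01 for Sqstm1 and 0.33 and -0.004 for Park7. For Gsk3b they stood at -0.37 and 0.01, for Btrc at -0.43 and -0.06 and for Dpp3 at 0.32 and 0.08.

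Of 23 other tested Nrf2 target genes 21 were higher and 2 lower, against 50.4% higher among all tested genes, with a median of 0.22 (TP-1036 0.37, TP-1040 0.05). On log2(CPM + 1) 22 lay above the wild-type mean in TP-1036 and 13 in TP-1040. An unadjusted p under 0.05 in edgeR was reached by 3, all higher, where 4.72% of all genes were. These were Ftl1, the ferritin light chain, with 234 and 231 CPM in wild type against 393 and 292 CPM, Ephx1, microsomal epoxide hydrolase, with 9.20 and 10.8 against 15.8 and 13.6 CPM, and Cbr3, a carbonyl reductase, with 2.61 and 2.27 against 3.62 and 3.70 CPM. In these 3 genes both case libraries lay above wild type, by 0.56 ± 0.16, 0.56 ± 0.16 and 0.58 ± 0.24 (log2, SE), each with an edgeR adjusted p of 0.538. Hmox1, heme oxygenase, had 5.68 and 5.54 against 9.11 and 5.47 CPM, high in TP-1036 and not in TP-1040. The lower genes were the efflux pump Abcc1 at -0.20 ± 0.14 and Aldh3a1, an aldehyde dehydrogenase, at -0.02 ± 0.33, whose sign turned under quantile normalization.

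All 14 tested superoxide and peroxide removal genes outside the set had a fitted value above 0, with a median of 0.29 (TP-1036 0.50, TP-1040 0.07). Gpx4, the glutathione peroxidase of lipid peroxides, had 374 and 347 CPM against 513 and 383 CPM (0.31 ± 0.16). Ucp2, a mitochondrial carrier, had 12.8 and 15.8 against 33.0 and 16.9 CPM (0.80 ± 0.31), and Ccs, the copper chaperone of Sod1, stood at 0.17 ± 0.15. The secreted enzymes varied most within wild type, where Sod3 had 2.13 CPM in P1041 and 7.27 in P1033, and Gpx3 had 10.3 and 66.3 CPM, so the log2 differences of 0.85 ± 0.56 and 0.04 ± 0.76 (SE) had wide errors. Without P1033, where P1041 alone stood for wild type and 91 genes were called in all, they became 2.01 and 1.94, with edgeR adjusted p of 4.49e-05 and 1.59e-09. Without P1041 they became 0.24 and -0.74, with edgeR adjusted p of 0.999 and 0.260. The summed markers of the pigment epithelium also differed within wild type, at 32.3 CPM in P1041 and 58.1 in P1033, and stood at 85.4 CPM for TP-1036 and 49.6 CPM for TP-1040. These markers split, with 3 of the 6 tested fitted higher and 3 lower. Ttr had 11.2 and 14.9 CPM in wild type against 41.6 and 28.4 CPM, and Dct 7.74 and 19.7 against 18.8 and 5.29 CPM. Their part in these values was not tested.

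In the glutathione list 14 of 18 tested genes were higher and 4 lower (median 0.11), where 50.4% of all tested genes were higher. Of the list 15 lay above the wild-type mean in TP-1036 and 9 in TP-1040. Ggt1, which breaks down extracellular glutathione, stood at 0.77 ± 0.28 on few reads, from 48 to 133, and the transferases Gstm1 and Gstp1 at 0.38 ± 0.21 and 0.19 ± 0.13. The glutamate and cysteine transporter Slc1a1 and the mitochondrial glutaredoxin Glrx2 stood below wild type in both libraries, at -0.20 ± 0.13 and -0.12 ± 0.11. In the thioredoxin list 12 of 14 were higher (median 0.13), with the thioredoxin inhibitor Txnip at 0.48 ± 0.20 and Msrb1, a methionine sulfoxide reductase, at 0.37 ± 0.18, while the selenoprotein Selenow stood at 0.30 ± 0.18. Txnrd3 and Sesn3, a sestrin, stood at -0.003 ± 0.21 and -0.01 ± 0.16 (log2, SE), and the sign of Txnrd3 turned under quantile normalization.

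The 3 tested genes of the superoxide-producing NADPH oxidase list stood higher too, without passing the test. Of 11 genes of the NADPH oxidase list 3 passed the filter on low values. Cybb, the catalytic subunit of phagocytes, fell below the filter, and Nox1, Nox4, Duox1 and Duox2 had no entry. Ncf1, the organizer subunit of phagocytes, had 4.46 and 3.82 CPM in wild type and 8.95 and 5.61 CPM in TP-1036 and TP-1040, and Cyba, the membrane subunit, had 4.01 and 3.09 against 7.53 and 4.29 CPM. Their log2 differences were 0.81 ± 0.27 and 0.74 ± 0.32 (SE, edgeR adjusted p = 0.538 for each), and Rac1, a small GTPase of many cell types, stood at 0.14 ± 0.12. The microglia and macrophage markers stood higher in the same libraries, as given above, and their part was not tested.

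The genes of these lists whose profile over the 4 libraries was nearest to the mean profile of the members were Gss, glutathione synthetase, Keap1, and Glrx, a glutaredoxin. Their root mean square distances were 0.029, 0.031 and 0.034 on centred log2(CPM + 1), among 79 candidates and over 4 libraries only. Within the set, Nfe2l2 lay nearest to that mean at 0.025 and Prdx6 farthest at 0.223. The mean profile was 0.18 in TP-1036 and -0.05, -0.07 and -0.06 in P1041, P1033 and TP-1040.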

How the data were processed

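RNA of whole retinas was sequenced from TruSeq libraries, per the labels' protocols, and Bowtie 0.12.2 and the builds mm8 and mm9 are named without a role, per the submitters' processing notes. The sources used here do not give the read counter, annotation or strand setting. A single table was deposited by the authors, with 4 columns of estimated counts, which were rounded to whole numbers here, and 4 per-library columns left unused. Library totals ran from 28866589 in P1041 through 32456452 in P1033 and 38508987 in TP-1036 to 41215649 in TP-1040, and every entry had at least 76.9 reads over the 4 libraries. Estimated counts share reads between similar sequences, as the fractions listed for Gclm and Sod2 show. Pseudogenes of Sod1 or Prdx6 could share reads too, but the counts listed for these genes were whole in all 4 libraries. Columns gave the group by name but no sample, so replicate numbers were not used. Within groups the chi-square of the counts was 11.0 (wild type) and 59.7 (case) times its degrees of freedom.

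Genes were kept at a mean FPKM of 1 or more, from the counts and the longest GENCODE M21 transcript, and tested with edgeR 4.0.16 (quasi-likelihood, TMM, two-sided, Benjamini-Hochberg at 0.05) in R 4.3.3, and the script was tested on simulated data. Standard errors are the log2 difference over the root of F. Levels per kilobase use the principal transcript of GENCODE M21. DESeq2 1.42.0, limma 3.58.1, other filters and scalings and leaving out each library were alternatives. The smallest two-sided p of an exact permutation test on 4 libraries in pairs is 0.333, so none was run. The members, lists and tests were chosen with earlier results of these data known. From each pathway list the text names the 2 highest and 2 lowest log2 differences and the gene of highest mean FPKM by longest transcript, which need not lead by CPM or per kilobase of principal transcript, with Keap1, Hmox1, Sod3, Plscr1 and the 3 nearest profiles. Some marker genes that this rule takes are not reported here.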

Additional observations from a re-analysis of the deposited data

How the results depend on the processing

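No paired analysis was possible because the columns carry no replicate number of the labels. Over 109 member values under the alternatives, 95 kept their sign and their side of the threshold, 12 turned sign and 2 passed the threshold, Prdx6 and Sod1, both without TP-1040. Gclm, near 0, stood at -0.00078 with RLE scaling, -0.00083 with DESeq2, -0.00068 and -0.00075 with limma on log2(CPM + 1) and log2(CPM + 0.1), and -0.013 at a mean FPKM of at least 5, a filter that left out Nqo1. Leaving out each library gave ranges of -0.091 to 0.098 for Gclm, -0.099 to 0.69 for Nqo1, -0.16 to 0.013 for Gclc, -0.082 to 0.25 for Srxn1 and -0.11 to 0.37 for Sod1, with the turn in sign without TP-1036, for Srxn1 also without P1033 (-0.00052) and for Gclm also without P1041 (-0.020). The median over the members was -0.023 at the lowest, without TP-1036, and 0.28 at the highest, without TP-1040, the members higher from 5 to 8, and the members called from 0 to 2. The cause was not tested.

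The genes called over the whole table numbered 69 with DESeq2, 1 with limma on log2(CPM + 1), 1 after quantile normalization and 1 with no filter, and with a library left out 27 (TP-1036), 29 (P1041), 91 (P1033) and 3923 (TP-1040). Of 352 values of the other named genes 15 turned sign and 21 passed the threshold. Quantile normalization gave 0.013 for Aldh3a1 and 0.013 for Txnrd3, and no filter 0.0085 for Txnrd3. Leaving out each library gave ranges of -0.74 to 1.9 for Gpx3, -0.37 to 0.28 for Aldh3a1, -0.22 to 0.18 for Sesn3, -0.085 to 0.085 for Txnrd3, -0.0033 to 0.35 for Sqstm1, -0.37 to 0.016 for Gsk3b, -0.034 to 0.70 for Hmox1 and -0.016 to 0.27 for Plscr1.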
